A study of Mus musculus with 21 samples.

Results

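The S100 proteins and the annexins are calcium-binding proteins that act at membranes and, when released, on other cells. Here 10 genes of the 54123 genes covered by the files were followed, 6 of the S100 family (S100a8, S100a9, S100a4, S100a6, S100a10 and S100a11) and 4 of the annexin family (Anxa1, Anxa2, Anxa3 and Anxa5). They were taken by name, and the reads of every transcript of a gene were added over both files of a library. RNA-Seq libraries were made from wildtype mice 24 hours after kidney surgery. The labels name the cells as neutrophils of the blood (PMNs) and renal tubular epithelial cells of the kidney (TECs). The mice were male C57BL/6 animals of 8 to 12 weeks per the study's methods, and no label names an altered allele or a drug. Ischemia-reperfusion injury (IRI) was made by clamping both renal pedicles for a time, and the sham groups had the surgery without the clamp. Remote ischemic preconditioning (RIPC) was 3 inflations of a cuff around the hind limb before the surgery, and the control groups had a cuff that did not stop the blood flow. TECs were taken from digested kidneys with beads against prominin-1, a surface protein of the proximal tubule, so that other kidney cells could be carried along.

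The 21 libraries fell into 8 groups. PMNs after sham surgery had 2 control and 3 RIPC libraries, and PMNs after IRI had 2 control and 3 RIPC libraries. TECs after sham surgery had 3 control and 3 RIPC libraries, and TECs after IRI had 2 control and 3 RIPC libraries. The study calls its libraries biological replicates, but the labels do not tie a library to an animal. If libraries of a group shared an animal, the p-values below would measure only the spread between these samples. The estimated counts of a library added up to 20881334 to 30507235 reads in PMNs and 21479605 to 51624602 reads in TECs. A count of 0 in a library allows up to 3 reads at that depth, and such limits cover counting error only.

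S100A8 and S100A9 form calprotectin, which is stored in the cytosol of neutrophils and acts on TLR4 and RAGE when it is released. S100A10 binds annexin A2, and this pair holds plasminogen and its activators at the cell surface. S100A11 binds annexin A1, which dampens neutrophil migration through the formyl peptide receptors, and S100A6 and S100A4 are small members of the same family that are tied to cell growth and to motility. Annexin A3 is a protein of neutrophil granules and of dividing epithelium, and annexin A5 binds phosphatidylserine on dying cells. In the kidney, several of these genes are known to be low in the intact proximal tubule and to be turned on by injury.

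Of the 10 genes, 7 lie on chromosome 3 of the mouse genome (GRCm38), and 6 of these are the S100 genes. S100a8 is at chr3:90668978-90670035 on the plus strand, S100a9 at chr3:90692632-90695721 on the minus strand, S100a4 at chr3:90603771-90606045 on the plus strand and S100a6 at chr3:90612882-90624181 on the plus strand. S100a10 is at chr3:93555080-93564643 and S100a11 at chr3:93520488-93526287, both on the plus strand, and Anxa5 is at chr3:36448923-36475894 on the minus strand. Anxa1 is at chr19:20373428-20390944 on the minus strand, Anxa2 at chr9:69453620-69491795 on the plus strand and Anxa3 at chr5:96793339-96845966 on the plus strand. All 10 are protein-coding genes, and the values below are sums over their exons and untranslated regions as Salmon assigned the reads.

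The bases just before the first annotated exon are shown for 4 genes, the calprotectin pair, which had the highest levels in PMNs, and S100a11 and Anxa2, which were higher after IRI. They come from the RefSeq promoter table of GRCm38.p6, in which 8 of the 10 genes were matched, and they run 5′ to 3′ on the strand of the gene. Capitals mark matches on either strand to 6 short motifs. The letters searched were TTGCNNAA for the C/EBP family of myeloid factors, TGANTCA for the AP-1 family, GAGGAA for the myeloid factor PU.1, GGGCGG for the general factor Sp1 and TATAAA for the TATA box, and the sixth was the motif of the NF-kB family. The pieces are chr3:90668821-90668977 (plus) for S100a8, chr3:90695722-90695971 (minus) for S100a9, chr3:93520246-93520487 (plus) for S100a11 and chr9:69453433-69453619 (plus) for Anxa2.
S100a8: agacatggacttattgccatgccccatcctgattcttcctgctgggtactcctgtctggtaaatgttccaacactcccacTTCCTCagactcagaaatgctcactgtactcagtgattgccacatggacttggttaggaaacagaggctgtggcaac
S100a9: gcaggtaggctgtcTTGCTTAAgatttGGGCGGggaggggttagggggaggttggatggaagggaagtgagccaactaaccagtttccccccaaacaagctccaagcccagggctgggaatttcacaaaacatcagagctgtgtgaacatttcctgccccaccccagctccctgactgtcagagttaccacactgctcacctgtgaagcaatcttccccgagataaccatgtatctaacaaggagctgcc
S100a11: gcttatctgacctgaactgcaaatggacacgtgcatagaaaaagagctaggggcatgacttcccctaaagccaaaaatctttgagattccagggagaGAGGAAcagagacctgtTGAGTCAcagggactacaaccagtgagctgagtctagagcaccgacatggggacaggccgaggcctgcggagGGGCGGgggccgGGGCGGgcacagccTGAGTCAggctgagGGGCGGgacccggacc
Anxa2: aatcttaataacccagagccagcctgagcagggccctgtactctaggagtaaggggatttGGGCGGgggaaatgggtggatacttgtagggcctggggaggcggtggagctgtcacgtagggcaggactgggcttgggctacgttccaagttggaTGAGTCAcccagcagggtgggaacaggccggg
The S100a9 piece held the only C/EBP match among the 4 pieces, with a Sp1 match beside it, and the S100a8 piece held a PU.1 match. The AP-1 letters stood in the S100a11 piece at positions -136 and -38 and in the Anxa2 piece at -95, counted from the RefSeq start site as 0. Over the whole window of 300 bases around the start site, the AP-1 letters were in 2 of the 8 promoters matched and in 7.81% of 32851 mouse promoters. The C/EBP letters were in 2 of 8 and in 10.8% of all promoters, and the PU.1 letters in 4 of 8 and 28.3%. The Sp1 letters were in 3 of 8 and 35.7%, the TATA box in 5 of 8 and 13.6%, and the NF-kB letters in 0 of 8 and 0.411%. No matches overlapped each other in the 4 pieces. A match describes the letters of these windows and is not a measured binding site.

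The labelled cell types were checked with marker genes, given as summed normalized counts (CPM after TMM scaling over all libraries). The 12 neutrophil markers summed to 1718 to 18237 in PMNs and to 1.63 to 73.6 in TECs, and the 9 proximal tubule markers to 1004 to 11964 in TECs. PMNs after sham surgery also held 2731 to 9110 of the 8 macrophage markers, against 635 to 1641 after IRI, and 336 to 3331 of the proximal tubule markers, against 207 to 351 after IRI. The 10 tubular injury markers went the other way in PMNs, at 852 to 2167 after sham surgery and 2716 to 9248 after IRI. Some of them had a higher mean in PMNs than in TECs (Lcn2, 761 and 43.1), others a lower one (Krt8, 36.2 and 506). The part of tubule cells in the PMN libraries was not tested. The neutrophil genes Elane and Mpo, which mark immature cells, were at 0 reads in every PMN library after sham surgery. The granule genes Ngp, Ltf and Camp of the same list were not absent there. Their highest normalized counts in these libraries were 3027, 657 and 108, and their medians 33.7, 1.29 and 0. The presence of immature cells was not tested. Among PMNs, replicate 1 of the sham control group stood apart with 10963 for the neutrophil markers (1718 to 2521 in the other 4 sham libraries), and replicate 2 with 3331 for the proximal tubule and 5212 for the distal tubule markers. In each of the 4 sham libraries other than replicate 1, the macrophage markers, at 2731 to 9110, summed above the neutrophil markers. By these markers, the PMN libraries after sham surgery were mixed samples and not neutrophils alone, whatever the label. Among TECs, replicate 1 of the sham control group stood apart with 10759 for the 10 tubular injury markers (1235 to 2781 in the other 5). Replicate 3 of the IRI RIPC group held 6792 for the proximal tubule markers (1004 to 2310 in the other 4 after IRI) and 6426 for the tubular injury markers (11157 to 17085). Calls and directions that changed without both of these TEC libraries are given beside the results. In such bulk samples, a change in the share of a cell type and a change in RNA per cell cannot be told apart.

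**Figure D1:**
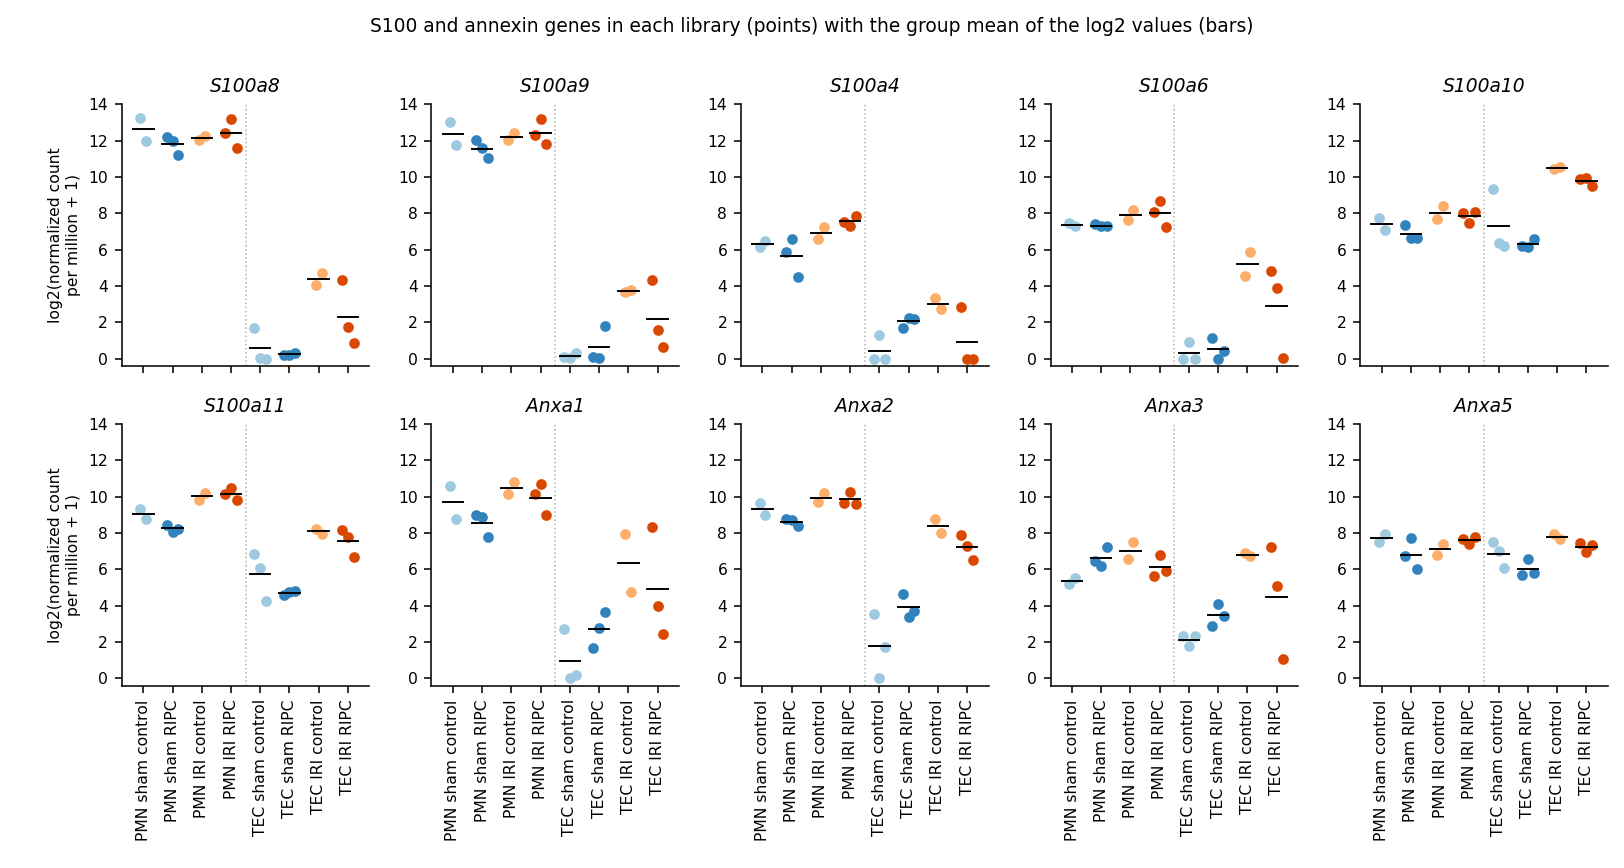
Each panel plots 1 gene, with log2 of the normalized count (CPM) plus 1 on the vertical axis and the 8 groups on the horizontal axis; points are libraries and bars are the group means of the log2 values. S100a8 and S100a9 lie near the top in every PMN library and near 0 in TECs after sham surgery, while S100a10 is the highest of the 10 in every TEC library after IRI.

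In TECs, 4 of the 10 genes were called higher after IRI, S100a10, S100a11, Anxa2 and Anxa3, and none was called lower. These 4 were called at an adjusted p under 0.05 over all 25917 genes tested, of which 0.255% were called higher and 1.4% in either direction. The unadjusted p was under 0.05 for 9 of the 10, against 15% of all genes. The median log2 difference of the 10 was 4.26, against 0.15 over all genes. The Wald test of DESeq2 gave an adjusted p to 9 of the 10 and called all 9, with 8.62% of all genes. The comparison set 5 libraries after IRI against 6 after sham surgery, with RIPC and control libraries weighted by their own group means.

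S100a10, the partner of annexin A2, had the highest level of the 10 in every TEC library after IRI. Its normalized counts after IRI were 1371 and 1491 in the control libraries and 934, 978 and 722 in the RIPC libraries. After sham surgery they were 645, 81.6 and 72.5 in the control libraries and 73.4, 71.0 and 93.6 in the RIPC libraries. Every library after IRI was above every library after sham surgery, and the sham library at 645 was the one with high injury markers. The mean was 1099 ± 321 (SD, n = 5) after IRI and 173 ± 231 (SD, n = 6) after sham surgery, with a log2 difference of 2.92 (SE 0.51, adjusted p = 0.0131).

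Anxa2, the annexin that carries S100A10 to the membrane, was near 0 in TECs after sham surgery. Its normalized counts were 10.9, 0 and 2.33 in the sham control libraries and 23.7, 9.25 and 12.2 in the sham RIPC libraries. After IRI they were 434 and 255 without RIPC and 236, 153 and 89.8 with it. The groups did not overlap, as was so for 2 of the 10 genes and for 1.59% of all genes in this direction. The mean was 234 ± 130.4 (SD, n = 5) after IRI and 9.73 ± 8.40 (SD, n = 6) after sham surgery, with a log2 difference of 4.83 (SE 0.96, adjusted p = 0.0254).

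S100a11, the partner of annexin A1, had normalized counts of 296 and 246 in the IRI control libraries and 280.3, 219.7 and 103 in the IRI RIPC libraries. After sham surgery they were 114, 67.4 and 18.1 without RIPC and 23.4, 26.0 and 26.9 with it. A single sham library, the one with high injury markers at 114, was above the lowest IRI library at 103. The mean was 229 ± 76.5 (SD, n = 5) against 46.0 ± 37.8 (SD, n = 6), and the log2 difference was 2.47 (SE 0.48, adjusted p = 0.0213).

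Anxa3, an annexin of granules and of dividing epithelium, had normalized counts of 119 and 104 in the IRI control libraries and 149.9, 33.2 and 1.06 in the IRI RIPC libraries. After sham surgery they were 4.05, 2.42 and 3.95 without RIPC and 6.42, 16.3 and 9.59 with it. The IRI library at 1.06 was the lowest of all 11 TEC libraries, and it was the one with high proximal tubule markers, while the other 4 were above every sham library. The mean was 81.3 ± 62.0 (SD, n = 5) against 7.11 ± 5.13 (SD, n = 6), and the log2 difference was 3.72 (SE 0.85, adjusted p = 0.046).

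S100a6, Anxa1 and the calprotectin pair did not pass the test, at log2 differences with larger errors than those of the 4 genes above. Anxa1 had normalized counts of 245 and 26.0 in the IRI control libraries and 319, 14.8 and 4.39 in the IRI RIPC libraries. After sham surgery it had 5.50, 0 and 0.150 without RIPC and 2.20, 5.72 and 11.5 with it. The IRI libraries at 245 and 319 were far above the highest sham library at 11.5, while the lowest IRI library lay among the sham values, and the log2 difference was 5.10 (SE 1.37, adjusted p = 0.0926). S100a6 had 22.1 and 56.6 in the IRI control libraries and 27.2, 14.0 and 0.0462 in the IRI RIPC libraries. After sham surgery S100a6 stayed at 0, 0.922 and 0 without RIPC and at 1.18, 0 and 0.354 with it. All IRI libraries but 1 were above the sham libraries, and the log2 difference of S100a6 was 5.79 (SE 1.73, adjusted p = 0.132).

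S100a8 in TECs rested on few reads. It had 53, 2 and 0 reads in the sham control libraries and 4, 4 and 6 in the sham RIPC libraries, against 401 and 562 in the IRI control libraries and 494, 56 and 18 in the IRI RIPC libraries. In normalized counts these were 0 to 2.19 after sham surgery and 0.831 to 25.7 after IRI, so that the groups overlapped, and the log2 difference was 4.99 (SE 1.56, adjusted p = 0.152). S100a9 had 2, 1 and 7 reads in the sham control libraries and 2, 1 and 56 in the sham RIPC libraries. The IRI control libraries held 297 and 283 reads of S100a9 and the IRI RIPC libraries 506, 47 and 13, and its log2 difference was 4.81 (SE 1.60, adjusted p = 0.186). In both genes the same 3 IRI libraries, both controls and replicate 1 of RIPC, were the high ones.

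Anxa5 and S100a4 moved least. Anxa5 had normalized counts of 245 and 199.7 in the IRI control libraries and 175, 120.4 and 162 in the IRI RIPC libraries, and in sham surgery 177, 127 and 65.1 without RIPC and 50.4, 94.8 and 54.8 with it. The groups overlapped, at means of 180.4 ± 46.3 (SD, n = 5) and 94.9 ± 49.6 (SD, n = 6), and the log2 difference was 0.98 (SE 0.38, adjusted p = 0.256). S100a4 was low throughout, at 9.13 and 5.58 in the IRI control libraries, at 6.22, 0 and 0 in the IRI RIPC libraries and at 0 to 3.74 after sham surgery. Its log2 difference of 1.52 (SE 1.91, adjusted p = 0.787) was smaller than its error.

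Markers of other cell types were summed in the same TEC libraries. The proximal tubule markers summed to 6788 to 11964 after sham surgery and to 1004 to 6792 after IRI. Of these 9, 5 were called lower, Slc34a1, Lrp2, Slc5a12, Slc22a6 and Miox, against 1.15% of all genes called lower. The tubular injury markers summed to 1235 to 10759 after sham surgery and to 6426 to 17085 after IRI. Of these 10, 3 were called higher, Krt20, Vim and Sox9, against 0.255% of all genes called higher. The 12 neutrophil markers summed to 1.63 to 30.9 after sham surgery and to 35.7 to 73.6 after IRI, with Ly6g, Ltf, Camp and Elane at 0 reads in every sham library and Camp at 0 in every TEC library. The 6 fibroblast markers summed to 0 to 9.13 after sham surgery and 10.8 to 39.8 after IRI, the 6 endothelial markers to 4.18 to 76.5 and 6.46 to 286, and the 8 macrophage markers to 3.22 to 35.2 and 10.3 to 35.6. None of the neutrophil, fibroblast, endothelial and macrophage markers was called by edgeR, against 1.4% of all genes. The unadjusted p was under 0.05 for 2, 3, 4 and 1 of the 6, 6, 6 and 8 tested, against 15% of all genes. The median log2 difference of the macrophage markers was negative, at -1.30. The part of these cell types in the differences of the S100 and annexin genes was not tested.

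The count of 4 depended on the libraries. It was 0 without replicate 1 or without replicate 2 of the sham RIPC group, 1 without replicate 2 of the sham control group or replicate 3 of the sham RIPC group, 2 without replicate 3 of the sham control group, and 3 to 6 without any of the others. Without both TEC libraries that stood apart it was 6, S100a8 at a log2 difference of 7.65 (adjusted p = 0.0275) and Anxa1 at 7.76 (adjusted p = 0.00672) being added, with 2.96% of all genes called. These were the sham library with the highest and the IRI library with the lowest injury markers. Leaving them out favours a larger difference for genes that follow injury, so the added calls are no further support.

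**Figure D2:**
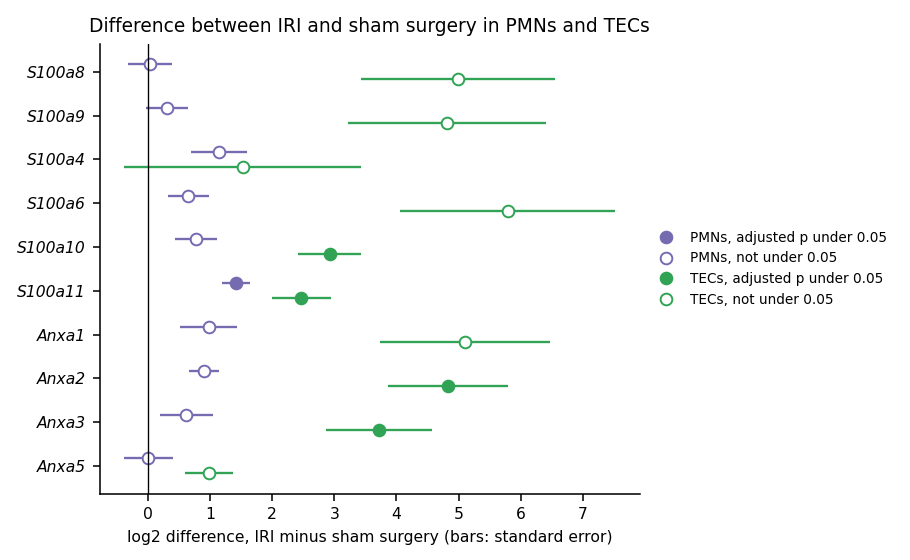
The horizontal axis is the log2 difference, IRI minus sham surgery, in PMNs and in TECs for each of the 10 genes, with standard errors as bars; filled points have an adjusted p under 0.05. S100a10, S100a11, Anxa2 and Anxa3 are filled in TECs and S100a11 alone in PMNs, and the unfilled TEC points of S100a6, Anxa1, S100a8 and S100a9 have longer bars than the filled ones.

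In PMNs, S100a11 alone was called higher after IRI. It was 1 of 10 called, against 0.416% of the 25002 genes tested, 0.364% of them higher. The unadjusted p was under 0.05 for 4 of the 10 and for 11.8% of all genes, and the median log2 difference of the 10 was 0.71, against -0.01 over all genes. DESeq2 also called 1, with 7.82% of all genes. The normalized counts of S100a11 were 644 and 438 in the sham control libraries and 351, 267 and 296 in the sham RIPC libraries. After IRI they were 893 and 1180.3 without RIPC and 1147, 1415 and 893 with it. Every IRI library was above every sham library, which held for 1 of the 10 genes and for 3.47% of all genes in this direction. The mean was 1106 ± 220.1 (SD, n = 5) after IRI and 399 ± 152 (SD, n = 5) after sham surgery, and the log2 difference was 1.42 (SE 0.23, adjusted p = 0.0439). This call held in 1 of 10 fits with a library left out, that without replicate 1 of the sham control group, and was lost without any of the other 9 libraries, where the log2 difference was still between 1.34 and 1.58 and the adjusted p between 0.0273 and 0.216 over all 10. The neutrophil markers summed to 1718 to 10963 after sham surgery and to 7100 to 18237 after IRI, and the macrophage markers to 2731 to 9110 and to 635 to 1641 without overlap. Of these 12 and 8 markers 0 were called by edgeR in PMNs, 8 and 5 having an unadjusted p under 0.05, and their part in the S100a11 difference was not tested. The tubular injury markers summed to 852 to 2167 after sham surgery and to 2716 to 9248 after IRI in PMNs. The part of tubule cells in the S100a11 difference was not tested either.

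The annexin partners of the pairs had smaller differences in PMNs. Anxa2 had normalized counts of 811 and 513 in the sham control libraries and 435, 420.4 and 332 in the sham RIPC libraries, and after IRI 830.3 and 1162 without RIPC and 811, 1215 and 777 with it. A single sham library reached the IRI range, and the log2 difference was 0.90 (SE 0.24, adjusted p = 0.221). Anxa1 had 1556 and 432 in the sham control libraries and 514, 460.4 and 219 in the sham RIPC libraries, and after IRI 1114 and 1756 without RIPC and 1114, 1668 and 506 with it. The groups overlapped, and the log2 difference was 0.98 (SE 0.46, adjusted p = 0.413). S100a10 had 213 and 136 in the sham control libraries and 166, 98.3 and 97.1 in the sham RIPC libraries, and after IRI 206 and 333 without RIPC and 259.8, 173 and 266 with it, at a log2 difference of 0.78 (SE 0.33, adjusted p = 0.413).

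Of the remaining genes, S100a4, a motility gene, had normalized counts of 21.8 to 94.2 after sham surgery and 94.1 to 227 after IRI, with a log2 difference of 1.15 (SE 0.45, adjusted p = 0.413). S100a6 lay between 155 and 177 in all 5 sham libraries and between 153 and 405 after IRI, with a log2 difference of 0.65 (SE 0.33, adjusted p = 0.426). Anxa3 lay between 35.7 and 149 after sham surgery and between 49.0 and 179 after IRI, with a log2 difference of 0.61 (SE 0.43, adjusted p = 0.566). Anxa5 had 180.1 and 240.0 in the sham control libraries and 63.3 to 209 in the sham RIPC libraries, against 111 to 221 after IRI. Its log2 difference was 0.01 (SE 0.39, adjusted p = 1), and its sign turned under 3 of the other settings of the fit.

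The calprotectin genes overlapped between the surgeries in PMNs. S100a8 had normalized counts of 9727 and 4006 in the sham control libraries and 4681, 4049 and 2378 in the sham RIPC libraries. After IRI it had 4141 and 4916 without RIPC and 5548, 9317 and 3102 with it, and the log2 difference was 0.03 (SE 0.35, adjusted p = 1). S100a9 had 8160.1 and 3424 in the sham control libraries, 4193, 3091 and 2115 in the sham RIPC libraries, 4158 and 5399 in the IRI control libraries and 5108, 9164 and 3614 in the IRI RIPC libraries. Its log2 difference was 0.31 (SE 0.33, adjusted p = 0.749). The highest sham library of both was the one with high neutrophil markers, and the part of that library was measured by leaving it out, at which the log2 difference was 0.43 for S100a8 and 0.70 for S100a9, and neither was called. Together, S100a8 and S100a9 made up 0.415% to 1.88% of all reads of a PMN library.

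The ratio of S100a8 to S100a9 reads in PMNs was looked at after the values had been seen, and has no test. It was 1.19 and 1.17 in the sham control libraries, 1.12, 1.31 and 1.12 in the sham RIPC libraries, 0.996 and 0.910 in the IRI control libraries and 1.09, 1.02 and 0.858 in the IRI RIPC libraries. All 5 sham libraries were above all 5 IRI libraries in reads. In TPM, which divides by transcript length, the ratio was 1.21 to 1.48 after sham surgery and 1.02 to 1.29 after IRI, and the groups overlapped. The S100a9 reads were divided over 2 transcripts, of which S100a9-201 held 78.1% in PMNs.

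**Figure D3:**
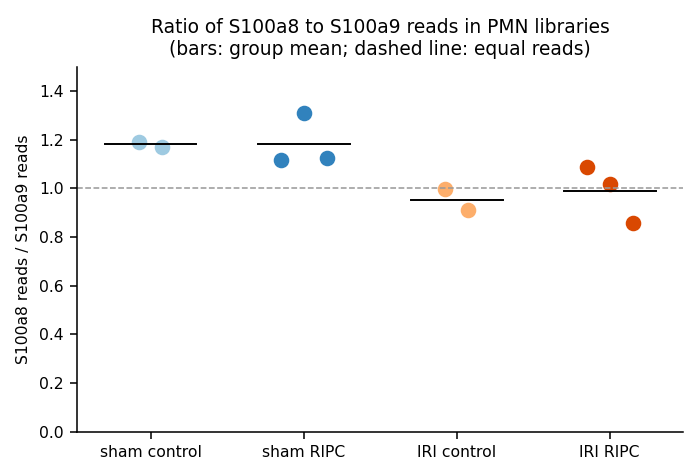
The vertical axis is the number of S100a8 reads divided by the number of S100a9 reads, for each PMN library (points) in 4 groups, with group means as bars and a dashed line at equal reads. The sham libraries lie between 1.12 and 1.31 and the IRI libraries between 0.858 and 1.09.

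Set against TECs, PMNs had more RNA of most of these genes after sham surgery. Of the 10 genes, 8 were called higher in PMNs and had an unadjusted p under 0.05, as did 17.5% of all genes in either direction. The 8 called stood against 1.49% of 31769 genes tested (2.62% in either direction; DESeq2 called 8, with 15% of all genes), and their libraries did not overlap, against 3.77% of all genes in this direction. The largest differences were those of S100a8, at 13.70 (SE 1.30, adjusted p = 4.79e-06), and S100a9, at 13.66 (SE 1.29, adjusted p = 4.79e-06), on the log2 scale. S100a6 followed at 8.64 (SE 1.43, adjusted p = 0.00126), Anxa1 at 7.49 (SE 1.33, adjusted p = 0.00244), Anxa2 at 5.97 (SE 0.90, adjusted p = 0.00044) and S100a4 at 5.71 (SE 1.39, adjusted p = 0.028). Anxa3 differed by 3.39 (SE 0.78, adjusted p = 0.0182) and S100a11 by 3.30 (SE 0.44, adjusted p = 0.000143). The 2 genes that were not called were S100a10, at -0.00 (SE 0.49, adjusted p = 1), and Anxa5, at 0.84 (SE 0.44, adjusted p = 0.323). With the sham TEC library that had high injury markers left out, S100a10 was at 0.89 (adjusted p = 0.253). The cell types also differed in tissue of origin, digestion and isolation, which cannot be told apart from the cell type.

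After IRI, 4 of the 10 genes were called between PMNs and TECs and 8 had an unadjusted p under 0.05, against 14.4% of all genes. The 4 called stood against 2.67% of all genes, 1.49% higher and 1.17% lower in PMNs. DESeq2 called 7, with 11.7% of all genes. S100a8 was higher in PMNs by 8.71 on the log2 scale (SE 1.28, adjusted p = 0.000561), S100a9 by 9.13 (SE 1.29, adjusted p = 0.00042) and S100a11 by 2.23 (SE 0.46, adjusted p = 0.00966). S100a10 was lower in PMNs, with a log2 difference of -2.16 (SE 0.54, adjusted p = 0.0316), and its TEC libraries at 722 to 1491 lay above all PMN libraries at 173 to 333. S100a6 at 3.47 (SE 1.27, adjusted p = 0.205), Anxa1 at 3.34 (SE 1.23, adjusted p = 0.209), Anxa2 at 2.04 (SE 0.84, adjusted p = 0.271) and S100a4 at 5.28 (SE 1.55, adjusted p = 0.0805) did not pass. Anxa3 at 0.27 (SE 0.77, adjusted p = 1) and Anxa5 at -0.16 (SE 0.47, adjusted p = 1) were within their errors. The PMN libraries were above all TEC libraries in 7 genes and below in 1, against 3.94% and 2.95% of all genes. With a library left out, 2 to 6 genes were called, 2 without either of the IRI control libraries of TECs, and without both TEC libraries that stood apart it was 4, with 2.23% of all genes and with Anxa3 at -0.0226.

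The mean of TECs after IRI as a share of the mean of PMNs after IRI ordered the genes from S100a9 to S100a10. S100a8 stood at 0.237% and S100a9 at 0.171% of the PMN mean, beside 0.471% for Ly6g, 0.535% for Csf3r, 0.257% for Mmp8, 0.162% for Mmp9, 0.161% for Retnlg and 0.154% for Itgam, which are neutrophil genes. S100a4 stood at 2.57%, S100a6 at 9.19% and Anxa1 at 9.90%, and the neutrophil genes Cxcr2, Elane and Mpo at 4.03%, 8.11% and 15.7%. S100a11 at 20.7%, Anxa2 at 24.3%, Anxa3 at 83.1%, Anxa5 at 104% and S100a10 at 444% were above all 12 neutrophil markers. Ltf stood at 0.0969%, Ngp at 0.00226% and Camp at 0. The part of neutrophils in the S100a8 and S100a9 reads of TECs was not tested.

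**Figure D4:**
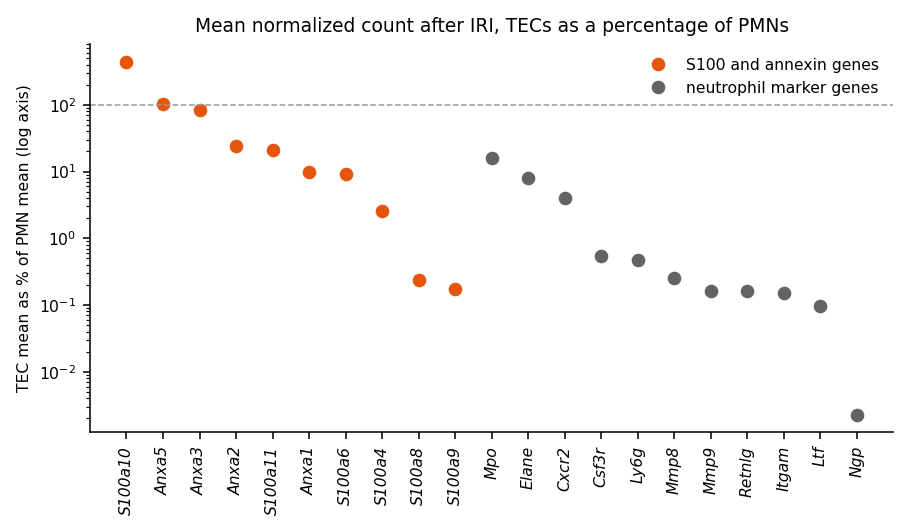
The log vertical axis gives the mean normalized count of TECs after IRI as a percentage of the mean of PMNs after IRI, for the 10 S100 and annexin genes and 11 of the 12 neutrophil markers (Camp, at 0 in TECs, is not drawn); the dashed line is 100%. S100a8 and S100a9 lie among the neutrophil markers at 0.237% and 0.171%, and S100a10 is at 444%.

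The difference between the IRI effects of the cell types (PMNs minus TECs) was negative in all 10 genes. These were measured in the same libraries, and the share of all genes with a negative difference was not counted. None of the 10 was called by edgeR, against 0% of all genes. The unadjusted p was under 0.05 for 7 of the 10 and for 9.76% of all genes, and the Wald test of DESeq2 called 6, with 7.54% of all genes. The difference was -4.99 for S100a8 (SE 1.26, adjusted p = 0.193), -4.53 for S100a9 (SE 1.24, adjusted p = 0.232), -5.17 for S100a6 (SE 1.66, adjusted p = 0.31) and -2.16 for S100a10 (SE 0.71, adjusted p = 0.313). It was -3.93 for Anxa2 (SE 1.14, adjusted p = 0.26), -4.15 for Anxa1 (SE 1.58, adjusted p = 0.361) and -3.13 for Anxa3 (SE 1.08, adjusted p = 0.325). Without both TEC libraries that stood apart, S100a8 at -7.50 (adjusted p = 0.00142), S100a10 at -3.11 (adjusted p = 0.0287) and Anxa1 at -6.76 (adjusted p = 0.0477) were called, with 0.129% of all genes. That choice of libraries favours a larger IRI effect in TECs, so these calls are no further support. The comparisons of surgeries and of cell types share their libraries, so that each gene's values are set side by side and are not independent of each other.

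Levels of different genes were compared in TPM, which is scaled per transcript length. In PMNs after sham surgery, the medians were 8088 for S100a8 and 5668 for S100a9, whose ranges overlapped, followed without overlap by S100a11 at 818 and then S100a6 at 341. S100a10 at 195, Anxa1 at 182, Anxa2 at 181, S100a4 at 134, Anxa5 at 71.1 and Anxa3 at 29.7 followed, each overlapping the next. After IRI, the medians in PMNs were 9919.6 for S100a8, 8624 for S100a9, 2846 for S100a11 and 605 for S100a6, in the same order. S100a8 ranked between 6 and 19 among the autosomal genes of a PMN library by TPM, and S100a11 between 27 and 118.

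In TECs the order was another. After sham surgery, the medians were 106 for S100a10, 45.5 for S100a11 and 24.1 for Anxa5, and the other 7 genes were each under 4, with S100a8 at 0.251 and S100a9 at 0.110. After IRI, S100a10 at 1484 and S100a11 at 478 were separate from each other and from the rest, followed by Anxa2 at 77.2, Anxa5 at 53.2, Anxa3 at 35.2 and S100a6 at 31.7, whose ranges overlapped. S100a10 ranked between 31 and 55 among the autosomal genes of a TEC library after IRI, and between 82 and 747 after sham surgery.

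RIPC was set against the control procedure within each surgery and cell type, which asks whether these genes differed with preconditioning in mice without and with the injury. None of the 10 genes was called by edgeR in any of the 4 comparisons or in the interaction of RIPC and surgery, and none by the Wald test of DESeq2 or, in the 4 comparisons, by DESeq2 with apeglm. The background was 0.004% of genes called in PMNs after sham surgery, 0% in PMNs and 0.00386% in TECs after IRI, and 0% in TECs after sham surgery and in both interactions. By DESeq2, 3.25% and 1.72% of all genes were called in PMNs after sham surgery and IRI, 1.64% and 2.7% in TECs, and 2.68% and 2.3% in the interactions of PMNs and TECs. By DESeq2 with apeglm it was 2.11% and 0.156% in PMNs after sham surgery and IRI, and 0.239% and 0.957% in TECs. Of each comparison, only genes with libraries that did not overlap or with an unadjusted p under 0.05 are named.

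In PMNs after sham surgery, the unadjusted p was under 0.05 for 2 of the 10 genes and 4.6% of all genes. S100a11 lay at 351, 267 and 296 with RIPC, below 644 and 438 without it, with a log2 difference of -0.86 (SE 0.31, adjusted p = 0.705). Anxa2 lay at 435, 420.4 and 332 with RIPC, below 811 and 513 without it, at -0.77 (SE 0.34, adjusted p = 0.705). Anxa3 lay at 87.7, 72.7 and 149 with RIPC, above 35.7 and 44.5 without it, at 1.32 (SE 0.63, adjusted p = 0.705). Groups of these sizes lay lower without overlap in 8.01% of all genes and higher in 4.66%. Both control libraries of this comparison were those that stood apart by their markers, and the part of this in the differences was not tested. In PMNs after IRI, the unadjusted p was under 0.05 for 0 of the 10 genes and 2.72% of all genes. S100a4 lay at 185, 158 and 227 with RIPC, above 94.1 and 150.0 without it, at 0.60 (SE 0.64, adjusted p = 1). Anxa5 lay at 205, 167 and 221 with RIPC, above 111 and 165 without it, at 0.48 (SE 0.56, adjusted p = 1), where 6.89% of all genes did not overlap in this direction.

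In TECs after sham surgery, the unadjusted p was under 0.05 for 2 of the 10 genes and 4.53% of all genes. S100a10 had a log2 difference of -1.76 (SE 0.67, adjusted p = 0.708), with libraries of both groups between 71.0 and 93.6 apart from the control library at 645, and it was 0.14 without both TEC libraries that stood apart. S100a11 had a log2 difference of -1.42 (SE 0.63, adjusted p = 0.708) and overlapped, and it was at -0.61 without both of these libraries, where 0 of the 10 genes and 0% of all genes were called. S100a4 at 2.30, 3.74 and 3.63 with RIPC lay above 0, 1.52 and 0 without it (2.57, SE 2.69, adjusted p = 1). Anxa3 at 6.42, 16.3 and 9.59 lay above 4.05, 2.42 and 3.95 (1.62, SE 1.08, adjusted p = 0.774), where 5.35% of all genes did not overlap in this direction.

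In TECs after IRI, all 10 genes had a negative log2 difference, with a median of -0.81 against 0.15 over all genes, and 0 had an unadjusted p under 0.05, against 4.35% of all genes. S100a10 lay at 934, 978 and 722 with RIPC, below 1371 and 1491 without it, with a log2 difference of -0.69 (SE 0.72, adjusted p = 0.953). Anxa2 lay at 236, 153 and 89.8 with RIPC, below 434 and 255 without it, at -1.10 (SE 1.26, adjusted p = 0.981). Anxa5 lay at 175, 120.4 and 162, below 245 and 199.7, at -0.54 (SE 0.57, adjusted p = 0.955). Groups of these sizes did not overlap in 8.96% of all genes in this direction. Replicate 3 of the RIPC group, the lowest of the 3 for S100a10 and Anxa2, held 6792 of the proximal tubule markers. None of the genes was called with or without it, which cannot measure its part in the lower means, and that part was not tested. With a library left out, the log2 differences were -0.81 to -0.52 for S100a10 and -1.46 to -0.69 for Anxa2. Without both TEC libraries that stood apart, the log2 differences were -0.51 for S100a10, -0.76 for Anxa2 and -0.53 for Anxa5, with 0 of the 10 genes and 0.0286% of all genes called. For the interaction of RIPC and surgery, the unadjusted p was under 0.05 for 1 of 10 genes in PMNs, Anxa3 at -2.27 (SE 0.86, adjusted p = 0.719), against 5.74% of all genes, and for 0 of 10 in TECs, against 7.21%.

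Other genes of both families, a list of 19 that also holds the S100P-binding protein gene S100pbp, did not pass the test for IRI against sham surgery. Of 13 tested in PMNs, 0 were called by edgeR and 2 had an unadjusted p under 0.05, against 11.8% of all genes, with a median log2 difference of -0.22. Of 14 tested in TECs, 0 were called and 1 had an unadjusted p under 0.05, against 15% of all genes, with a median of 0.03. DESeq2 called 2 of the 12 with an adjusted p in PMNs and 1 of the 10 in TECs, against 7.82% and 8.62% of all genes. Between PMNs and TECs after IRI, 1 of 14 was called, against 2.67% of all genes. This was Anxa11, an annexin of vesicle transport, which was higher in PMNs by 3.52 on the log2 scale (adjusted p = 0.00373), at means of 208 and 17.0 normalized counts.

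Receptors and partners of the proteins were followed as a list of 16 genes. In PMNs, 3 of the 15 tested were called higher after IRI and none lower, against 0.364% of all genes called higher. The median log2 difference was 1.58, against -0.01 over all genes, and 4 of the 15 had a negative one. Fpr1, a formyl peptide receptor bound by annexin A1, rose from 51.8 ± 30.6 to 443 ± 60.2 normalized counts (SD, n = 5 in each), a log2 difference of 3.04 (adjusted p = 0.0468). Fpr2, the second receptor of annexin A1, rose from 37.3 ± 9.43 to 231 ± 57.7 (SD, n = 5 in each), a log2 difference of 2.61 (adjusted p = 0.0294). Plaur, the urokinase receptor, rose from 197 ± 120.2 to 1229 ± 255 (SD, n = 5 in each), a log2 difference of 2.56 (adjusted p = 0.0255). The libraries of these 3 genes did not overlap between the surgeries, as in 5 of the 15 and 3.47% of all genes in this direction. Tlr4, a receptor of calprotectin, went from a mean of 12.0 ± 14.4 to 82.4 ± 32.7 in PMNs without overlap and did not pass (log2 difference 2.73, adjusted p = 0.45). Between the same libraries, the neutrophil markers summed to 1718 to 10963 after sham surgery and to 7100 to 18237 after IRI. The macrophage markers summed to 2731 to 9110 and to 635 to 1641. The part of these cell types in the differences of the receptors was not tested.

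In TECs, 0 of the 14 receptors and partners tested were called by edgeR after IRI, 10 had an unadjusted p under 0.05, against 15% of all genes, and the median log2 difference was 3.14, against 0.15 over all genes. DESeq2 called 2 of the 7 with an adjusted p, both higher, and 8.62% of all genes. Ahnak, a large scaffold protein that binds the S100A10 and annexin A2 pair, had the smallest adjusted p, at a log2 difference of 3.98 (adjusted p = 0.062) and means of 92.9 ± 40.9 (SD, n = 5) and 5.89 ± 5.51 (SD, n = 6) that did not overlap. Plaur had 163 ± 109 against 7.27 ± 11.2, also without overlap (log2 difference 4.44, adjusted p = 0.216). Bsg, a surface receptor that S100A9 is known to bind, went the other way without overlap, with 265 ± 75.5 against 442 ± 75.4 (log2 difference -0.74, adjusted p = 0.28). Libraries lay above without overlap in 1.59% and below in 3.02% of all genes. Between the cell types, Fpr1 was higher in PMNs after sham surgery (adjusted p = 5.26e-06) and after IRI (adjusted p = 1.39e-05). Its normalized counts were 22.7 to 487 in PMNs, 0 to 0.0498 in TECs after sham surgery and 0 in every TEC library after IRI, and no fold is given against libraries at 0.

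The genes with the most like pattern were found over the 8 group means of log2(CPM + 1), each centered on its own mean, among 25213 genes, by the smallest root mean square difference. For S100a8 they were S100a9 (0.306), Retnlg (0.608) and Lyz2 (0.909). For S100a6 they were Anxa1 (0.617), Lgals9 (0.697) and Rgs2 (0.716). For Anxa1 they were S100a6 (0.617), Vim (0.758) and Lgals9 (0.849), and for Anxa2 they were Vim (0.645), Plaur (0.893) and S100a6 (0.993). These differences are on the log2 scale over 8 groups that share the cell type contrast, and are given as a description.

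Some reads could belong to other genes. Of the 534 stretches of 50 bases in the S100a4 transcripts, 47.4% were also in Gm42674, an overlapping protein-coding gene of the same strand, whose reads came to 12.3% of those of S100a4 in PMNs and 6.06% in TECs. The S100a4 values are therefore uncertain by the way Salmon divided shared reads. S100a11 shared 41.1% and 23.4% of its stretches with the pseudogenes Gm12854 and Gm7665, whose reads came to under 0.1% of those of S100a11 in both cell types. A dominant transcript held most reads of S100a10 (99.3% in PMNs and 99.9% in TECs for S100a10-201), Anxa5 (97.3% and 98.8% for Anxa5-201) and Anxa2 (96.8% and 97.3% for Anxa2-201). Anxa1 differed, with 96.0% of its reads on Anxa1-201 in PMNs and 70.5% in TECs, and with an offset for transcript length its TEC difference after IRI was 3.20 on the log2 scale. S100a6 was split over S100a6-203 (50.9%) and S100a6-201 (38.4%) in PMNs.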

How the data were processed

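RNA-Seq was done by the authors on 21 libraries of PMNs and TECs, with reverse transcription from the poly(A) tail, PCR of full-length cDNA and single-end reads of 50 bases. Reads were trimmed by the authors with Trim Galore 0.6.4 and quantified with Salmon 1.0.0 against a mouse transcriptome (mm10, Gencode vM23). The deposited values used here are raw estimated counts for each transcript, without any scaling, and the deposited TPM, scaled by transcript length and library size. Each library came in 2 files, whose estimated counts were not independent (the median squared difference over the sum was 0.0135 to 0.0533, where independent counting gives 0.4549), so that they were added as 1 library.

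Transcripts were matched to genes of Gencode vM21 (GRCm38), and 884 of 140748 had no match (0.139% to 0.255% of reads). Sums per gene were rounded to whole counts, and tests covered autosomal genes. In edgeR 4.0.16 (run in R 4.3.3 beside limma 3.58.1), a quasi-likelihood F test with TMM and filterByExpr was fitted to the libraries of a cell type, or to all 21 libraries between cell types, with 1 mean per group. IRI was set against sham surgery over the averages of the control and RIPC groups. A gene was called at a Benjamini-Hochberg adjusted p under 0.05, adjusted across every gene of the fit, in 11 comparisons. The biological coefficient of variation was 1.648 in PMNs and 1.5375 in TECs. Printed normalized counts are CPM with TMM factors of all 21 libraries. TPM was the sum over transcripts, averaged over both files.

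Alternatives were another scaling, other filters on low counts, each file alone, a correction for transcript length, all chromosomes, robust dispersion, the replicate number as a block, DESeq2 1.42.0 with and without apeglm 1.24.0 (s value under 0.01), reads of genes that share sequence added, the control or RIPC groups alone, the compared groups alone and each library left out. Leaving out both TEC libraries that stood apart was added after the data had been seen. They were picked by their injury and proximal tubule markers, which favours a larger difference between IRI and sham surgery in TECs.

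The 10 genes and the lists were chosen with earlier results of these data known. All 10 are named in each comparison of surgeries or cell types. For RIPC and for differences of effects, those without overlap or with an unadjusted p under 0.05 are named. Other genes of both families and the receptors and partners are given as counts with those called. Anxa11, Tlr4, Ahnak, Bsg, Plaur in TECs and Fpr1 between cell types were named after their values had been seen. Simulated counts with known changes were used to test the scripts.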

Additional observations from a re-analysis of the deposited data

Results flagged for a closer look

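Anxa5, which binds phosphatidylserine on dying cells, had differences of opposite sign between RIPC and control after IRI in the PMN and TEC libraries, and RIPC and control libraries were apart from each other in both cell types. In PMNs the RIPC libraries were at 205, 167 and 221 normalized counts, above the control libraries at 111 and 165. In TECs the RIPC libraries were at 175, 120.4 and 162, below the control libraries at 245 and 199.7. The log2 differences of RIPC minus control were 0.48 in PMNs and -0.54 in TECs, which gives -1.02 for TECs minus PMNs. The difference between the cell types was not tested. Each was smaller than its error (SE 0.56 and 0.57) and neither passed the test of edgeR (adjusted p = 1 and 0.955), and 6.89% of all genes lay above without overlap in PMNs and 8.96% below in TECs.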

How the results depend on the processing

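Of the 10 genes, the number called in PMNs after IRI was 1 as reported, 0 with the replicate block, 0 in the control groups alone and 0 to 1 with a library left out. In TECs after IRI it was 4 as reported, 9 by DESeq2, 0 in the control groups alone, 0 in the RIPC groups alone and 0 to 6 with a library left out. Between PMNs and TECs after sham surgery it was 8 as reported, 5 in the control groups alone, 3 in the RIPC groups alone and 6 to 8 with a library left out. Between PMNs and TECs after IRI it was 4 as reported, 8 without a filter on low counts, 7 by DESeq2, 0 in the control groups alone and 2 to 6 with a library left out. For the difference of the IRI effects it was 0 as reported, 5 without a filter (with 722 of 43623 genes), 6 by DESeq2, 3 without both TEC libraries that stood apart and 0 to 2 with a library left out, 2 being without replicate 1 of the TEC sham control group. The values in the control or RIPC groups alone are contrasts within the same fit, which rest on fewer libraries. The cause of the other changes was not tested. For RIPC and its interaction with surgery it was 0 under every alternative run. Over all genes, the number called after IRI was 104 in PMNs (0 to 1955 under other settings) and 363 in TECs (1 to 2234), the highest being by DESeq2, and 832 and 847 between cell types after sham surgery and IRI (180 to 4753 and 71 to 3725). For the difference of the IRI effects it was 0 (0 to 2395).

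Of 1483 values of single genes under alternatives, 1336 kept their direction and their side of the threshold, 72 fell below it, 43 passed it and 32 changed sign, all of them uncalled. After IRI in PMNs, Anxa5 changed sign with a mean CPM of at least 1 (-0.0047), with the length offset (-0.0738) and in the control groups alone (-0.62). S100a8 (-0.61) and S100a9 (-0.29) did so in the control groups alone and Anxa3 (-0.52) in the RIPC groups alone. In TECs, S100a4 did so with the replicate block (-0.0423) and in the RIPC groups alone (-0.68). S100a10 between cell types after sham surgery was 0.0115 with the second file alone, 0.0059 with the replicate block, 0.60 in the RIPC groups alone, 0.0138 in the compared groups alone and 0.89 without both TEC libraries that stood apart. Without these, S100a10 for RIPC in sham TECs was 0.14, and Anxa3 between cell types after IRI was -0.0226. Anxa5 between cell types after IRI was 0.38 in the RIPC groups alone. With a library left out, sign changes fell within -0.16 to 0.35 for Anxa5 and -0.18 to 0.43 for S100a8 in PMNs, -2.82 to 4.91 for S100a4 in TECs, and between cell types -0.32 to 0.89 for S100a10, -0.0224 to 1.18 for Anxa3 and -0.32 to 0.031 for Anxa5.

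Pairing by replicate number was checked within each cell type only. Deviations of same-numbered libraries had correlations of -0.023 to 0.0303 in PMNs. In TECs the correlations were -0.1001 to 0.1366, where 1 of 15 was over 0.1. In the smallest groups the deviations of the libraries mirror each other, so these low values cannot show that libraries were unpaired. PMN and TEC libraries of the same number were not compared, so pairing between cell types was not tested. The main tests between cell types took all libraries as independent. The replicate block gave 0, 3, 8, 5 and 0 calls in the 5 comparisons above. The low reads of S100a8, S100a9, S100a6 and S100a4 in sham TECs limit the precision of their differences. In such a fit a lone library left in a group is taken to vary like the other groups.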
